A study of Mus musculus with 12 samples.

Results

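The cholesterol synthesis and lipid uptake genes described here are 39 mouse genes of sterol synthesis, its regulation, lipoprotein uptake and export, and fatty acid synthesis, chosen by name out of 21179 named genes on the array. All 39 had at least 1 probe, 75 probes in all, and 38 were bright enough to be tested. Total RNA of mouse embryonic stem (ES) cells was measured after 3 days in retinoic acid, a vitamin A derivative that drives ES cells out of self-renewal, and in undifferentiated ES cells. Each group held 3 biological samples with 2 technical arrays each, 12 one-colour Cy3 arrays altogether. The cell line, its genotype and its culture, feeder cells included, are not given in the sources used here, and no label ties the samples to separate cultures: the p-values reflect the spread between these samples, which may be technical.

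Cells make cholesterol from acetyl-CoA through mevalonate, the isoprenoids and squalene, which is closed into a ring and trimmed to cholesterol in a chain of oxidations and reductions. The transcription factors encoded by Srebf1 and Srebf2 switch on these genes, and those of fatty acid synthesis, when membrane cholesterol is low: the carrier Scap brings them to the Golgi for cleavage, and the Insig proteins hold Scap back when sterol is plentiful. Cells also take up cholesterol in lipoproteins through receptors of the low density lipoprotein receptor family and pass it out through ABC transporters, which are targets of the oxysterol-sensing liver X receptors. Cholesterol has a particular part in embryos, where it is attached to hedgehog signals, and megalin, encoded by Lrp2, carries lipoproteins and vitamins into early epithelia.

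Genes that mark the labelled states were checked first. Pou5f1, a core pluripotency factor, averaged 8.15 ± 0.43 in retinoic acid samples and 12.88 ± 1.02 in undifferentiated samples (log2 intensity, mean ± SD, n = 3 each, as for all means below), and 6 of 6 ES cell markers fell, with a summed intensity of 4486 to 5393 against 66906 to 97266 in undifferentiated samples. Cyp26a1, the retinoic acid degrading enzyme, averaged 14.71 ± 0.17 in retinoic acid samples and 6.66 ± 0.24 in undifferentiated samples, and came close to the brightest spots of the arrays. Markers of other cells moved too. Of 14 markers of visceral and parietal endoderm, the lipoprotein-handling layers around the embryo, 13 were tested, 6 rose and 1 fell. The summed intensity of the 14 was 16676 to 19818 against 4206 to 6469 in undifferentiated samples. Of the 13 differences 7 were above 0 and 6 below, with a median of 0.17. Gata6 (log2 difference 4.11) and Sox17 (3.78) were among those that rose, while Ttr was above background on 0 of 12 arrays. Of 6 trophoblast markers 4 rose (47964 to 55681 against 1226 to 3141), of 8 feeder fibroblast markers, 6 tested, 4 rose and 1 fell (2122 to 3081 against 995 to 1207), of 5 neural markers 1 rose (3307 to 3612 against 2556 to 3442) and of 5 macrophage markers, 2 tested, 1 fell (152 to 183 against 397 to 423). The part of these cell types in the results below was not tested, and in RNA of whole cultures fewer cells of a type and less RNA per cell cannot be told apart. The arrays had median net intensities of 37.4 to 96.6, and technical arrays of a sample correlated at 0.992 to 0.999. The background limit, set by negative control spots, ran from 8.5 to 51.6 between arrays. From 53.8% to 85.0% of probes lay above it, most on the 2 arrays of undifferentiated replicate 2. Counts of arrays above background therefore rest on limits that differed between arrays.

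Of the 38 genes tested, 16 rose after retinoic acid (42.1%), 2 fell (5.26%) and 20 did not pass the test at an adjusted p under 0.05. Over all 15326 genes tested, 18.7% rose and 13.6% fell. The genes that rose lay mostly in the late sterol steps and in fatty acid synthesis, and both genes that fell, Abca1 and Abcg1, encode cholesterol exporters. The median log2 difference of the 38 genes was 0.43, beside 0.0035 over all genes tested, and 33 of the 38 differences were above 0. In 21 of the 38 genes (55.3%) no sample of one group lay within the other group, beside 46.6% of all genes tested. At least 2-fold rises were called in 10 of the 38 genes, beside 1573 of the 15326 genes tested (10.3%). With each array scaled to its 75th percentile in place of quantile normalization 11 genes rose and 3 fell (2446 and 2644 of all genes), and with scaling to the median 11 rose and 2 fell (2383 and 2238 of all genes). Without retinoic acid replicate 1, or without retinoic acid replicate 3, 11 genes rose and 1 fell.

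**Figure D1:**
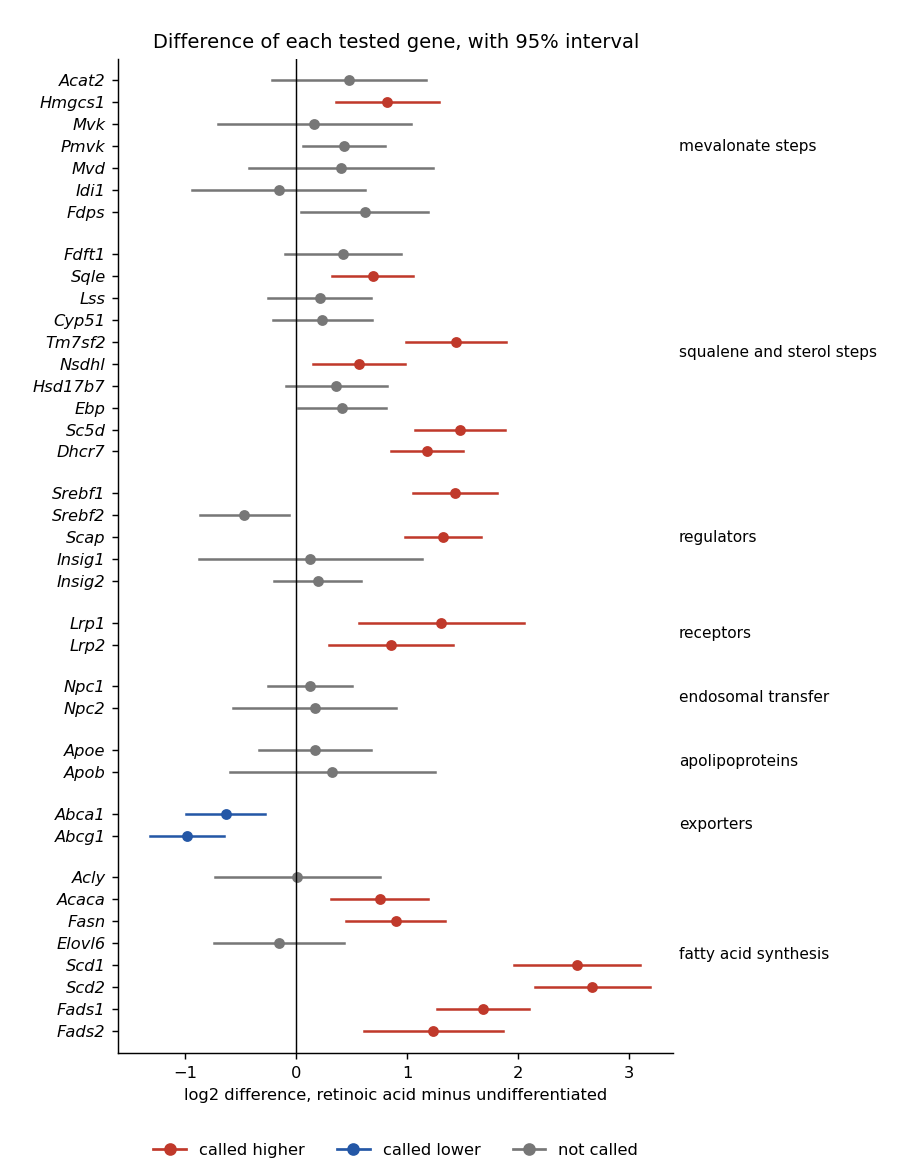
Log2 difference, retinoic acid minus undifferentiated, of the 38 tested genes (horizontal axis), ordered by role down the page. Points are the fitted differences, bars their 95% intervals (n = 3 samples per group) and colours the call. Scd1 and Scd2 lie farthest right at 2.53 and 2.67, and Abca1 and Abcg1 are the only genes called lower in the fit shown.

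**Figure D2:**
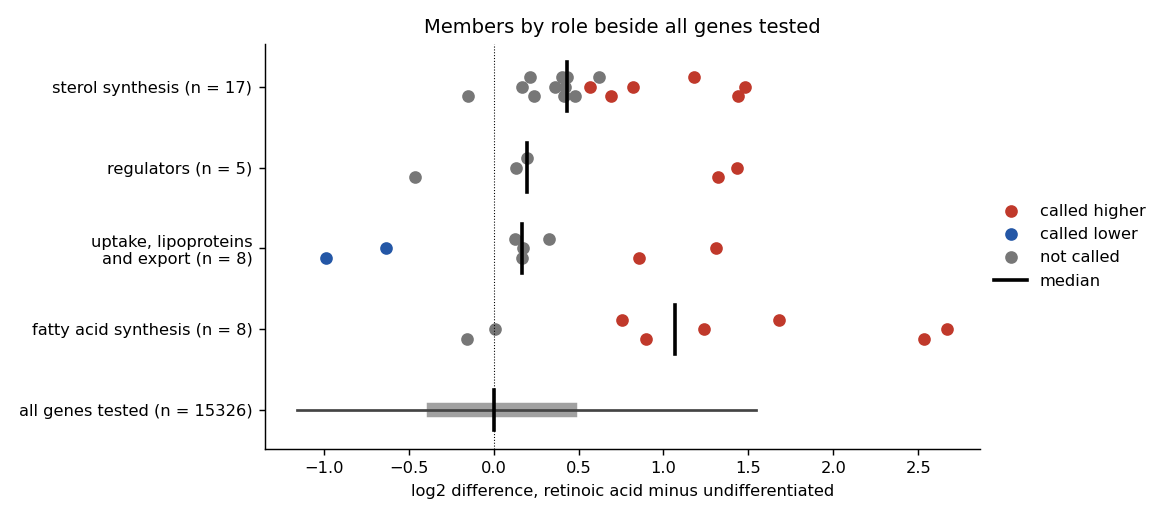
Log2 difference of each tested gene (points, horizontal axis) by role, with the median of each role as a black bar. The lowest row gives the 15326 genes tested, with a thin line spanning the 5th to 95th percentiles (-1.15 to 1.54) and a thick line the 25th to 75th (-0.35 to 0.45); the median of the fatty acid genes lies at 1.07.

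Several genes of the late sterol steps, which make squalene and turn it into cholesterol, rose after retinoic acid. Of the 10 genes from Fdft1 to Dhcr7, 5 rose (50%, beside 18.7% of all genes tested) and 0 fell. Under 75th percentile and median scaling 3 rose. All 10 differences were above 0, with a median of 0.49. The largest were those of Sc5d, Tm7sf2 and Dhcr7. Sc5d, the desaturase that acts just before the last step, had log2 intensities of 10.50, 10.80 and 10.53 in the 3 retinoic acid samples, against 9.38, 9.07 and 8.95 in the undifferentiated samples. All retinoic acid samples lay above all undifferentiated samples, and the gene rose 2.78-fold (log2 difference 1.48, SE 0.18, adjusted p 0.000606). Tm7sf2, a sterol reductase, had 11.31, 11.05 and 11.37 in retinoic acid samples, against 9.60, 10.14 and 9.67 in undifferentiated samples. Here too the groups stood apart, and Tm7sf2 rose 2.71-fold (log2 difference 1.44, SE 0.19, adjusted p 0.00114). Dhcr7, the enzyme of the final reduction to cholesterol, which is mutated in Smith-Lemli-Opitz syndrome in humans, had 11.08, 10.99 and 10.97 in retinoic acid samples, against 9.75, 9.87 and 9.88 in undifferentiated samples. Its samples differed little within a group, and it rose 2.27-fold (log2 difference 1.18, SE 0.14, adjusted p 0.000581).

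Sqle, squalene epoxidase, which adds the oxygen needed for ring closure and is rate-limiting for the later pathway, had 12.53, 12.62 and 12.41 in retinoic acid samples, against 11.82, 11.66 and 12.005 in undifferentiated samples. Every retinoic acid sample was above every undifferentiated sample, and Sqle rose 1.62-fold (log2 difference 0.69, SE 0.16, adjusted p 0.0125). Nsdhl, a dehydrogenase of sterol demethylation, had 10.42, 10.58 and 10.60 in retinoic acid samples, against 10.01, 9.69 and 10.21 in undifferentiated samples. The groups did not overlap and Nsdhl rose 1.48-fold, close to the threshold (log2 difference 0.57, SE 0.18, adjusted p 0.0439). The other 5 genes did not pass the test. Fdft1, squalene synthase, differed by 0.42 (adjusted p 0.199), Lss, which closes the ring, by 0.21 (0.47), Cyp51, a sterol demethylase, by 0.24 (0.4), and Hsd17b7, a ketosteroid reductase, by 0.36 (0.201). Ebp, the sterol isomerase, had 11.02, 10.94 and 10.92 in retinoic acid samples and 10.78, 10.58 and 10.28 in undifferentiated samples, so that its groups did not overlap, but it missed the threshold (log2 difference 0.41, 95% interval 0.02 to 0.81, adjusted p 0.105).

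Of the 7 genes of the mevalonate and isoprenoid steps, 1 rose and 0 fell, with a median log2 difference of 0.43. The share that rose, 14.3%, was below the 18.7% of all genes tested. Hmgcs1, the synthase that makes the substrate of the rate-limiting reductase, had 12.78, 12.67 and 12.67 in retinoic acid samples, against 11.69, 11.67 and 12.29 in undifferentiated samples. Undifferentiated replicate 3 was the nearest to the retinoic acid samples, and Hmgcs1 rose 1.77-fold (log2 difference 0.82, SE 0.20, adjusted p 0.0163). Fdps, farnesyl diphosphate synthase, had 12.42, 12.30 and 12.42 in retinoic acid samples, against 12.31, 11.33 and 11.65 in undifferentiated samples. Undifferentiated replicate 1 lay among the retinoic acid samples, and the difference of 0.62 did not pass the test (95% interval 0.05 to 1.19, adjusted p 0.0941). Pmvk, phosphomevalonate kinase, had 11.18, 11.40 and 11.20 in retinoic acid samples, against 10.66, 11.00 and 10.83 in undifferentiated samples. Its groups did not overlap, and its 2 probes gave the same difference of 0.43, without a call (adjusted p 0.0745). Acat2, the cytosolic thiolase that begins the pathway, had 9.10, 8.80 and 9.45 in retinoic acid samples, against 9.08, 8.01 and 8.82 in undifferentiated samples. The groups overlapped, and the difference of 0.48 had a 95% interval of -0.21 to 1.17 (adjusted p 0.266). Mvk, mevalonate kinase, and Mvd, the decarboxylase, differed by 0.17 (-0.70 to 1.03) and 0.40 (-0.42 to 1.23). Idi1, the isopentenyl diphosphate isomerase, was the only synthesis gene with a difference below 0, at -0.15 (-0.93 to 0.63), and its undifferentiated samples spanned 11.02 to 12.25.

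Tm7sf2, Sc5d and Dhcr7 were called under 75th percentile and median scaling as well, whereas Hmgcs1 (log2 difference 0.47 and 0.51), Sqle (0.34 and 0.37) and Nsdhl were not, so that 3 of the 17 synthesis genes rose there in place of 6. Without retinoic acid replicate 1 also 3 rose: Hmgcs1 had an adjusted p of 0.0626, Sqle of 0.0514 and Nsdhl of 0.0852, while without undifferentiated replicate 1 Fdps was called (log2 difference 0.89, adjusted p 0.0155) and without undifferentiated replicate 2 Pmvk was (0.0432). Hmgcs1 was not called either without retinoic acid replicate 3 (0.057) or undifferentiated replicate 1 (0.0619), or with the mean of all its probes (log2 difference 0.24, adjusted p 0.553), nor was Nsdhl without any other single sample except undifferentiated replicate 3 (0.0791 to 0.149).

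**Figure D3:**
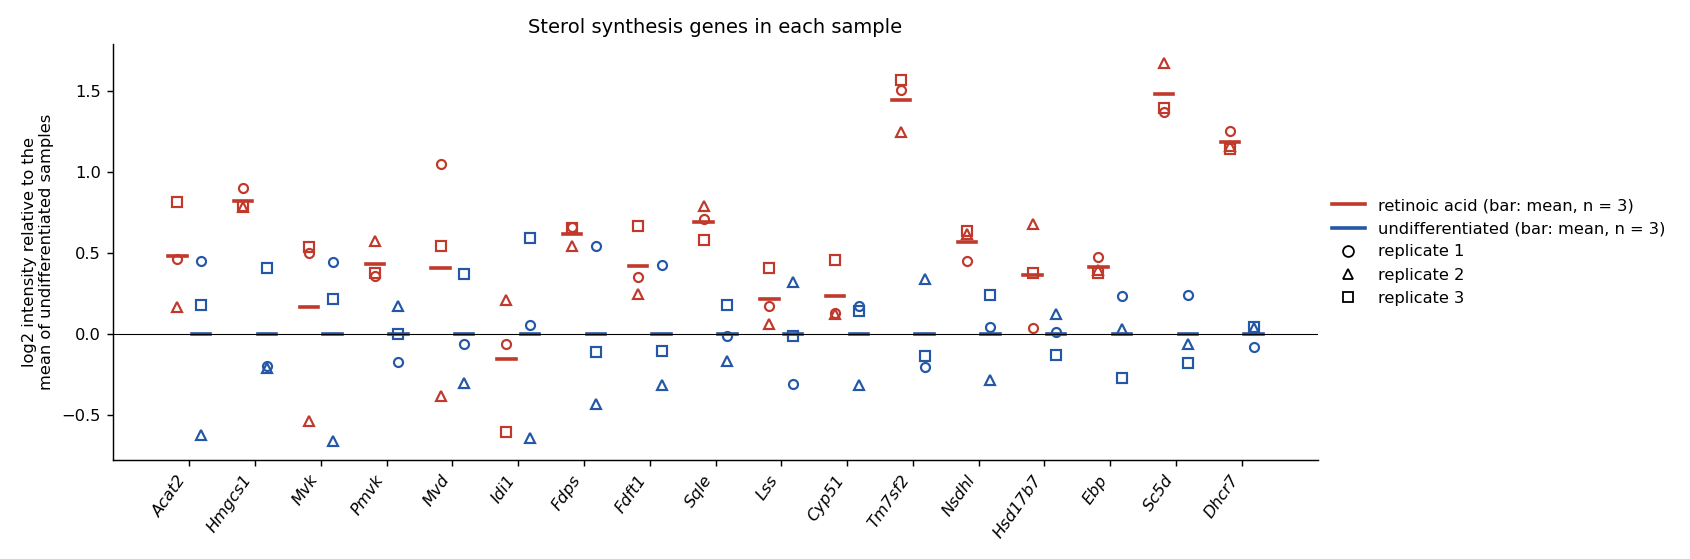
Log2 intensity of the 17 sterol synthesis genes in each sample, relative to the mean of the undifferentiated samples of that gene (vertical axis), with retinoic acid samples on the left of each pair. Symbols mark the replicate and short bars the group mean (n = 3); the groups of Tm7sf2, Sc5d and Dhcr7 stand widest apart, while those of Mvk and Idi1 overlap.

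Promoter sequence was available for 31 of the 39 genes in the RefSeq table of assembly GRCm38.p6, as 41 windows of 300 bases that end just after the start of transcription. They were searched on both strands for a sterol regulatory element written as TCACNCCAC, the kind of site that the Srebf factors bind, and for CCAAT, the box bound by the NF-Y factor that works beside them, whose reverse complement reads ATTGG. The windows below are shown because Hmgcs1 was the only one of the 31 with a sterol regulatory element, because Sc5d and Dhcr7 are 2 of the late synthesis genes that rose most, and because Abca1 fell and its window held neither motif. Matches are in capitals and each window is written 5′ to 3′ on the strand of the gene. Hmgcs1 is at chr13:119690101-119690400, plus strand, Sc5d at chr9:42264251-42264550, minus strand, Dhcr7 at chr7:143829964-143830263, plus strand, the only 1 of its 3 windows with a match, and Abca1 at chr4:53159846-53160145, minus strand.
Hmgcs1: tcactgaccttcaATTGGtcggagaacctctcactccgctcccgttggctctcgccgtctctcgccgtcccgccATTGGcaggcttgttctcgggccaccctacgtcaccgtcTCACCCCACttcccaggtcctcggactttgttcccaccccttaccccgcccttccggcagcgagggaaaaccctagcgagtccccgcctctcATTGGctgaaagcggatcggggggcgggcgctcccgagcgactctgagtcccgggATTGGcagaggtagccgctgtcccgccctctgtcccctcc
Sc5d: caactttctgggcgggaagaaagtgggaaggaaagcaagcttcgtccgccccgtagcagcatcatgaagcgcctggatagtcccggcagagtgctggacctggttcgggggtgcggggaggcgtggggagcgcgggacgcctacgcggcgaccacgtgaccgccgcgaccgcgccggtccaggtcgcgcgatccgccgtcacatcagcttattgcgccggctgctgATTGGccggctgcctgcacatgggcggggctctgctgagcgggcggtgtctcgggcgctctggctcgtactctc
Dhcr7: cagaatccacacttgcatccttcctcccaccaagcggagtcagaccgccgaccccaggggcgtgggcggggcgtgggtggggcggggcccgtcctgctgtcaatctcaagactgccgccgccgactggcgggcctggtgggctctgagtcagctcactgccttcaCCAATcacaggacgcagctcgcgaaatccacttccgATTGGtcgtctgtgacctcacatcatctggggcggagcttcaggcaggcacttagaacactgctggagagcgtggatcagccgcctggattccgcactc
Abca1: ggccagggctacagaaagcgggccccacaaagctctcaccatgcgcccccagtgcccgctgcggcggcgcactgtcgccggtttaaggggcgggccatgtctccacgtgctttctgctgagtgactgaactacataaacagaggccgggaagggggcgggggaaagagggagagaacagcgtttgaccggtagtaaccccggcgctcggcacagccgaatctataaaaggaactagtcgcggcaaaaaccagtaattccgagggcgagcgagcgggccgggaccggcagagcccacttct

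In Hmgcs1 the sterol regulatory element began at base 114 of the window and 4 CCAAT boxes, all on the other strand, began at bases 14, 75, 206 and 261. No CCAAT box overlapped the sterol regulatory element. The element as spelled here was in 1.24% of all 32851 mouse windows, and CCAAT in 37.4%. By gene, CCAAT was in 13 of the 14 synthesis genes with a window (92.9%), in 4 of the 5 regulators, in 1 of the 7 genes of uptake, lipoproteins and export (14.3%) and in 2 of the 5 fatty acid genes, beside 41.1% of the 27025 genes with a window. Acat2 was the synthesis gene without it, and Npc2 the uptake gene with it. The box was in the windows of synthesis genes that rose (Hmgcs1, Nsdhl, Sc5d, Dhcr7, Tm7sf2) and of those that did not pass the test (Mvk, Mvd, Idi1, Lss, Cyp51 among them). Neither motif was in the windows of Scap, Lrp1, Lrp2, Acaca and Fads2, which rose, nor in that of Abca1, which fell. These matches describe letters in a window and were not tested against the expression values.

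Among the regulators the gene of 1 sterol response factor and that of the carrier rose, and Srebf2 fell under some of the alternatives only. Srebf1, whose protein drives mainly fatty acid genes, had log2 intensities of 12.55, 12.26 and 12.67 in retinoic acid samples, against 11.14, 11.03 and 11.00 in undifferentiated samples. The groups lay more than a log2 unit apart, and Srebf1 rose 2.7-fold (log2 difference 1.43, SE 0.16, adjusted p 0.000469). Scap, the sterol-sensing carrier, had 11.52, 11.51 and 11.49 in retinoic acid samples, against 10.03, 10.31 and 10.22 in undifferentiated samples. Its retinoic acid samples were nearly equal, and it rose 2.5-fold (log2 difference 1.32, SE 0.15, adjusted p 0.000434). Srebf2, whose protein drives mainly cholesterol genes, had 10.39, 10.76 and 10.53 in retinoic acid samples, against 11.03, 10.85 and 11.21 in undifferentiated samples. All retinoic acid samples were below all undifferentiated samples, but the difference of -0.46 did not pass the test (95% interval -0.86 to -0.07, adjusted p 0.0755), and the 3 further probes of Srebf2 gave 0.21, 0.02 and 0.05. Insig1, itself a target of the Srebf factors, had 8.88, 7.79 and 8.87 in retinoic acid samples, against 8.48, 7.56 and 9.10 in undifferentiated samples. The groups overlapped, with a difference of 0.13 (-0.87 to 1.14), and Insig2, its paralog, differed by 0.19 (-0.20 to 0.59). Srebf2 was called lower with 75th percentile scaling (log2 difference -0.66, adjusted p 0.0227), with technical array 2 alone (-0.57, adjusted p 0.0484) and without undifferentiated replicate 2 (-0.56, adjusted p 0.0487), whereas Srebf1 and Scap were called higher under every alternative run.

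Both lipoprotein receptors in the set rose, Lrp2 without a call under 75th percentile or median scaling. Lrp1, a broad receptor for apolipoprotein E particles and protease complexes, had log2 intensities of 9.27, 8.31 and 9.42 in retinoic acid samples, against 7.48, 7.48 and 8.11 in undifferentiated samples. Retinoic acid replicate 2 was the lowest of its group yet lay above every undifferentiated sample, and Lrp1 rose 2.48-fold (log2 difference 1.31, SE 0.32, adjusted p 0.0167). Lrp2, or megalin, had 11.18, 11.74 and 11.43 in retinoic acid samples, against 10.38, 11.04 and 10.36 in undifferentiated samples. The groups were close but did not overlap, and Lrp2 rose 1.81-fold (log2 difference 0.85, SE 0.24, adjusted p 0.0288). Its partners in endoderm differ in these arrays: Dab2, the adaptor that takes Lrp2 into the cell, averaged 9.49 ± 0.34 in retinoic acid samples and 7.51 ± 0.33 in undifferentiated samples (adjusted p 0.000628; a second probe gave a log2 difference of 0.38 without a call), while Cubn, with which Lrp2 takes up lipoproteins, and Amn, which anchors Cubn, differed by 0.17 and -0.37 and did not pass the test. Lrp1 lost its call without retinoic acid replicate 1 (adjusted p 0.0622), retinoic acid replicate 3 (0.0664) or undifferentiated replicate 1 (0.0631), and Lrp2 without retinoic acid replicate 2 (0.0866), retinoic acid replicate 3 (0.0855), undifferentiated replicate 1 (0.0985) or undifferentiated replicate 3 (0.0757).

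Inside the cell, Npc2 hands cholesterol from digested lipoproteins to Npc1 in the membrane of late endosomes. Neither passed the test, with differences of 0.17 for Npc2 (-0.56 to 0.90, adjusted p 0.736) and 0.13 for Npc1 (-0.25 to 0.51, adjusted p 0.609). Of the apolipoproteins, the protein coats of lipoproteins, Apoe had 13.22, 13.57 and 13.40 in retinoic acid samples, against 12.82, 13.31 and 13.55 in undifferentiated samples, so the groups overlapped (difference 0.17, -0.33 to 0.67, adjusted p 0.599). Apob, the coat of particles secreted by liver and yolk sac endoderm, was above background on 6 of 6 retinoic acid arrays and 4 of 6 undifferentiated arrays, with a difference of 0.33 (-0.59 to 1.25). Apoa1, the main coat of high density lipoprotein, was above background on 0 of 6 retinoic acid arrays and 1 of 6 undifferentiated arrays, and was the gene not tested.

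The cholesterol exporters Abca1 and Abcg1 fell, whereas Abcg5, which exports sterols in liver and gut, rose by 0.61 on the log2 scale (adjusted p 0.0151), with 2 of 6 undifferentiated arrays above background. Abca1, which loads cholesterol onto lipid-poor apolipoproteins, had log2 intensities of 8.75, 8.86 and 8.60 in retinoic acid samples, against 9.35, 9.26 and 9.50 in undifferentiated samples. No retinoic acid sample reached the undifferentiated range, and Abca1 fell to 0.645 times the undifferentiated level (log2 difference -0.63, SE 0.15, adjusted p 0.0161). Abcg1, which passes cholesterol to mature high density lipoprotein, had 8.46, 8.55 and 8.38 in retinoic acid samples, against 9.52, 9.36 and 9.47 in undifferentiated samples. It fell to 0.506 times the undifferentiated level (log2 difference -0.98, SE 0.14, adjusted p 0.00162), and both falls were called under 75th percentile and median scaling. Macrophages, cells rich in both exporters, had Cd68 as the marker that fell, at 7.17 ± 0.08 in retinoic acid samples and 8.56 ± 0.12 in undifferentiated samples. Of the 5 macrophage markers only 2 were bright enough to be tested, and the other tested marker had a log2 difference of 0.07 without a call. The part of macrophages in the falls was not tested. Abca1 lost its call without retinoic acid replicate 1 (adjusted p 0.0583) or retinoic acid replicate 3 (0.0835), whereas Abcg1 kept its call under every alternative run.

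Genes of fatty acid synthesis and desaturation held the largest differences of the set. Of 8 genes 6 rose (75%, beside 18.7% of all genes tested) and 0 fell, with a median log2 difference of 1.07. Under 75th percentile and median scaling 5 rose, which left out Fasn. Scd2, the stearoyl-CoA desaturase of embryo and brain, which puts the first double bond into saturated fatty acids, had log2 intensities of 14.85, 14.45 and 14.59 in retinoic acid samples, against 11.96, 11.59 and 12.34 in undifferentiated samples. It rose 6.36-fold, with groups that stood more than 2 log2 units apart (log2 difference 2.67, SE 0.22, adjusted p 0.000108). Its highest net intensity on an array was 38353, where the brightest spots of the arrays reached 43314 to 49949. Scd1, its paralog of liver and fat, had 11.76, 11.72 and 11.93 in retinoic acid samples, against 9.48, 8.72 and 9.60 in undifferentiated samples, and rose 5.79-fold (log2 difference 2.53, SE 0.24, adjusted p 0.000224). The Scd genes lie side by side on chromosome 19 and are alike in sequence, and whether their probes share signal was not tested.

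Fads1 and Fads2, neighbouring genes on chromosome 19 for the desaturases that make polyunsaturated fatty acids, rose together. Fads1 had 11.57, 11.38 and 11.91 in retinoic acid samples, against 9.997, 9.83 and 9.99 in undifferentiated samples, and rose 3.21-fold (log2 difference 1.68, SE 0.18, adjusted p 0.000348). Fads2 had 9.30, 8.36 and 9.20 in retinoic acid samples, against 7.62, 7.54 and 7.98 in undifferentiated samples, and rose 2.36-fold (log2 difference 1.24, SE 0.27, adjusted p 0.0103). In both genes replicate 2 was the lowest sample of either group, and no groups overlapped. Fasn, the fatty acid synthase, had 13.78, 13.40 and 13.77 in retinoic acid samples, against 12.81, 12.97 and 12.47 in undifferentiated samples, and rose 1.86-fold (log2 difference 0.90, SE 0.19, adjusted p 0.00951). Acaca, acetyl-CoA carboxylase, the committed step, had 9.95, 9.75 and 10.27 in retinoic acid samples, against 9.45, 9.14 and 9.11 in undifferentiated samples, and rose 1.69-fold (log2 difference 0.75, SE 0.19, adjusted p 0.0184). The steps on either side of these did not pass the test. Acly, which makes cytosolic acetyl-CoA from citrate, differed by 0.01 (-0.73 to 0.76) and Elovl6, which lengthens saturated fatty acids, by -0.15 (-0.74 to 0.43). Fasn was not called with 75th percentile (log2 difference 0.51) or median scaling (0.55) or by its second probe (0.29). Acaca was not called with the mean of all its probes (log2 difference 0.099, adjusted p 0.655), by its second probe (0.42, adjusted p 0.134), or without retinoic acid replicate 1 (adjusted p 0.0563) or retinoic acid replicate 3 (0.0821).

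**Figure D4:**
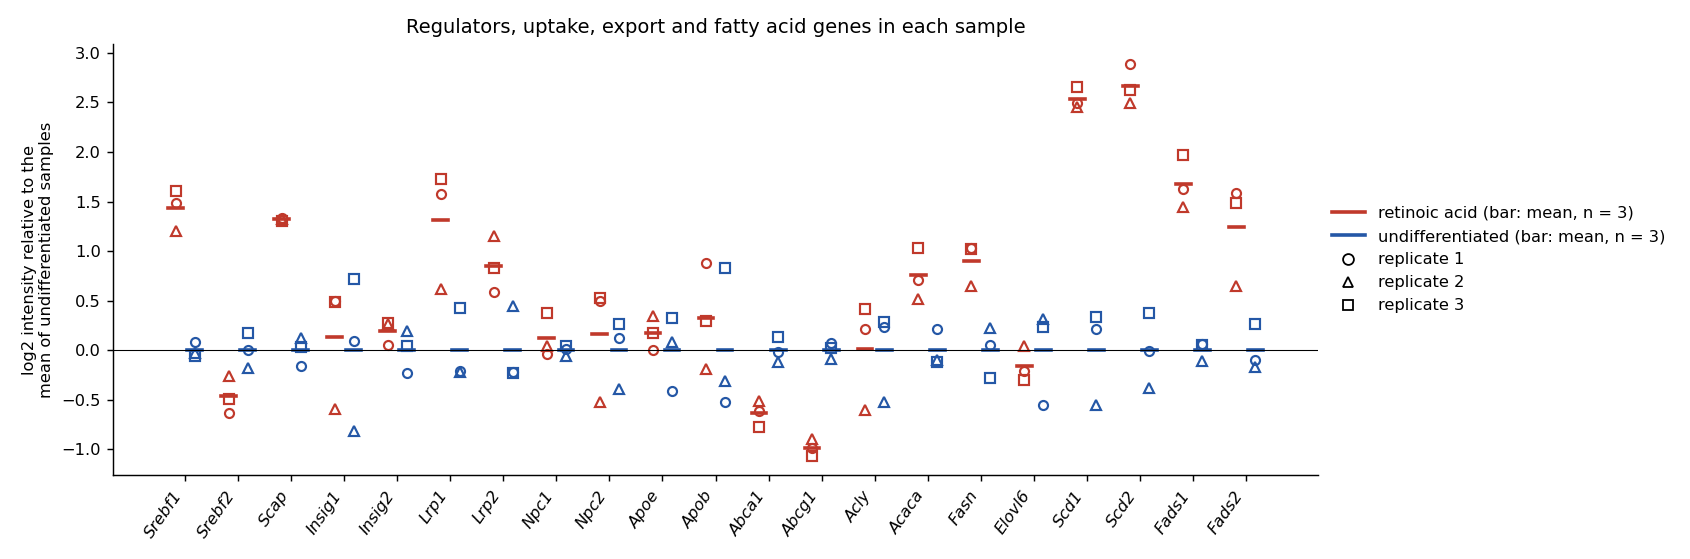
Log2 intensity of the tested regulator, uptake, lipoprotein, export and fatty acid genes in each sample, relative to the mean of the undifferentiated samples of that gene (vertical axis), with retinoic acid samples on the left of each pair. Symbols mark the replicate and short bars the group mean (n = 3); Scd1 and Scd2 stand highest, the exporters Abca1 and Abcg1 lie below the undifferentiated samples and Apoe overlaps.

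A gene was represented by its brightest probe, and 22 of the 39 genes had more than 1 probe. Their 36 further probes, 30 of them tested, were fitted each by itself, where 14% of all 26587 probes tested were higher and 11.5% lower. Of these 30 probes 1 was called, the second probe of Sc5d (log2 difference 0.84). The second probe of Dhcr7 gave 0.90, that of Lrp1 0.51 and that of Lrp2 0.75, without a call. With the mean of all probes of each gene 13 genes rose and 2 fell (2591 and 2192 of all genes), and Hmgcs1, Nsdhl and Acaca lost their calls. Among the 15 further probes of genes that were called, 11 had the sign of the brightest probe and 4 the opposite sign: 1 of Hmgcs1 (-0.17), 1 of Nsdhl (-0.03) and 2 of Acaca (-0.53 and -0.25). In the fit by probe the brightest Nsdhl probe itself was not called (adjusted p 0.054). The 10 called genes with a single probe, Scd1, Scd2, Fads1, Fads2, Srebf1, Scap, Tm7sf2, Sqle, Abca1 and Abcg1, had no such check.

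**Figure D5:**
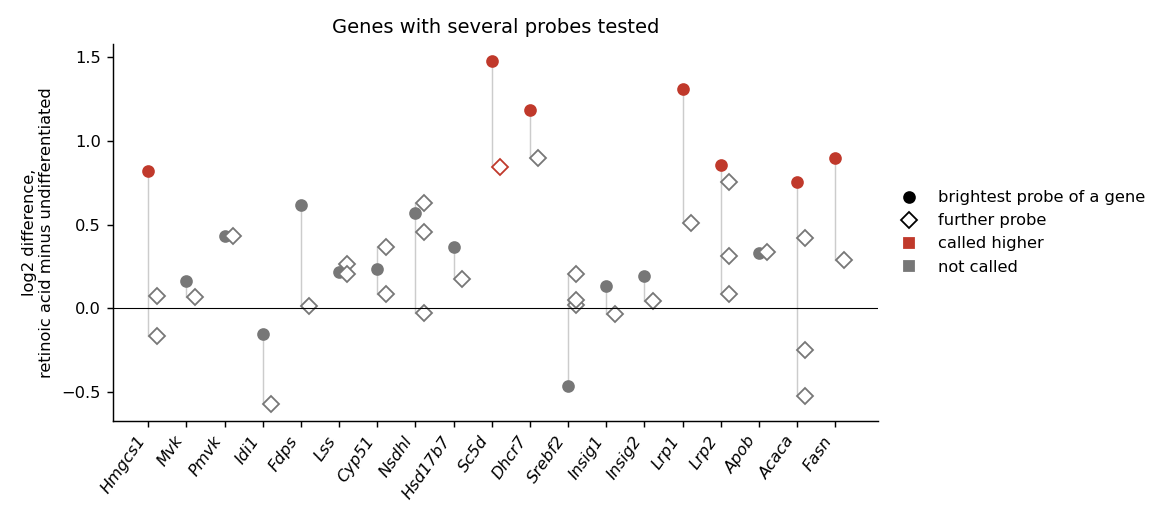
Log2 difference, retinoic acid minus undifferentiated (vertical axis), of each tested probe of the 19 genes with more than 1 tested probe. Filled circles are the brightest probe of a gene, open diamonds its further probes and red marks probes called higher; Sc5d has both probes called, while the probes of Hmgcs1, Nsdhl, Acaca, Srebf2 and Insig1 lie on both sides of 0.

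Other genes of these pathways were counted by the same fit, and under 75th percentile and median scaling each list differed by at most 1 gene in either count. Of 9 further sterol synthesis genes 3 rose (33.3%, beside 18.7% of all genes tested) and 0 fell, with a median of 0.48. Msmo1, a sterol methyl oxidase, averaged 12.79 ± 0.04 in retinoic acid samples and 11.68 ± 0.28 in undifferentiated samples, a rise of 2.16-fold (adjusted p 0.00254), and Acat1, the mitochondrial thiolase, averaged 9.56 ± 0.14 in retinoic acid samples and 8.35 ± 0.33 in undifferentiated samples (log2 difference 1.21, adjusted p 0.00298). Of 10 genes of Srebf processing and sterol sensing, 9 were tested and 3 rose (33.3%), with a median of 0.39. Among them Soat1, which stores cholesterol as esters, averaged 10.32 ± 0.32 in retinoic acid samples and 9.02 ± 0.45 in undifferentiated samples (log2 difference 1.30, adjusted p 0.00758).

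Of 27 further genes of receptors and lipoprotein handling, 24 were tested, 5 rose (20.8%) and 3 fell (12.5%), with a median of 0.06. Both shares lay near those of all genes tested (18.7% and 13.6%). Clu, the apolipoprotein clusterin, averaged 11.01 ± 0.47 in retinoic acid samples and 8.27 ± 0.73 in undifferentiated samples (adjusted p 0.00137), and Lrp4, a receptor relative that acts in Wnt and agrin signalling, averaged 9.26 ± 0.24 in retinoic acid samples and 7.62 ± 0.27 in undifferentiated samples (adjusted p 0.000701). Those that fell were Pltp, the phospholipid transfer protein (log2 difference -1.47, adjusted p 0.014), Scarb2, a lysosomal membrane protein (-0.90, adjusted p 0.0168), and Apoc1 (-1.09, adjusted p 0.0261). Apoc1 is the neighbour of Apoe on chromosome 7, and averaged 11.30 ± 0.19 in retinoic acid samples and 12.39 ± 0.61 in undifferentiated samples, while Apoe did not pass the test. Only Pltp fell without retinoic acid replicate 1 or 3, and 0 of the 3 without undifferentiated replicate 1.

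No further exporter tested was called lower. Of 10 further genes of export and oxysterol synthesis, 8 were tested, 4 rose (Abca2, Abca3, Abcg4 and Abcg5) and 0 fell, with a median of 0.53. The share that rose was 50%, beside 18.7% of all genes tested. Abcg4 and Abcg5 were bright enough to be tested only through the retinoic acid arrays. Of the 5 genes above background on all 12 arrays 2 rose, Abca2 and Abca3, beside 2061 of 11981 genes. Abca3, the lipid transporter of lung surfactant, averaged 9.08 ± 0.01 in retinoic acid samples and 7.35 ± 0.23 in undifferentiated samples (adjusted p 0.000205), Abcg4, a relative of Abcg1, rose by 1.33 on the log2 scale (adjusted p 0.000438), with 3 of 6 undifferentiated arrays above background, and Abca2 rose by 1.12 (adjusted p 0.0112). Without retinoic acid replicate 3 only Abca3 and Abcg4 rose. Of 21 further fatty acid genes, 18 were tested, 5 rose and 5 fell (27.8% each), with a median of 0.20. Over all genes tested 18.7% rose and 13.6% fell. Those that rose included Elovl1, an elongase of very long chains (log2 difference 1.93, adjusted p 0.000656), and the fatty acid activating enzymes Acsl4 (1.90, adjusted p 6.82e-05) and Acsl3 (1.51, adjusted p 0.000355). Those that fell included Agpat2, an enzyme of phosphatidic acid synthesis (-1.28, adjusted p 0.0105), the fatty acid binding protein gene Fabp3 (-1.26, adjusted p 0.0041) and Acsl1 (-1.20, adjusted p 0.00276), another activating enzyme.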

How the data were processed

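Net mean intensities per spot, on a linear scale and already net of local background, were deposited for 12 arrays, per the file headers; R 2.15.0 and limma are named in the submitters' processing notes, and no label names the background method. The authors also deposited a table of processed intensity, which correlated with quantile-normalized log2 values at 0.999997 or more and served as an alternative. Here intensities were quantile-normalized, 50 was added and log2 taken, which understates folds of dim genes. Probes were named through accessions, then symbols, in the RefSeq table of GRCm38.p6; no label gives the build of the array. A gene was tested when its brightest probe exceeded the 95th percentile of 27 negative control spots on at least 4 of 6 arrays of either group. Technical arrays were averaged, and limma 3.58.1 (R 4.3.3; lmFit and eBayes, two-sided, no covariates, Benjamini-Hochberg over 15326 genes) compared the groups. A check was run on simulated data with the gene means and SDs of this comparison and 200 of 15326 genes changed. There the fit recovered 85.7% of changes of 2 log2 units and 41.6% of 1 log2 unit, with 4.2% false calls. In the real data 18.7% of genes rose and 13.6% fell, and the simulated noise was independent between genes. These rates therefore need not hold for the real comparison.

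The genes, lists and motifs were chosen with earlier results of these data known. Per-sample values are given for genes called, the 3 largest differences of each role, and genes whose probes disagree, and up to 3 called genes per further list and direction are named; some genes this rule covers are counted but not reported here by name. Neither slide nor scan date was known, and no batch was fitted. The header of undifferentiated replicate 2, technical array 2, carries the name of technical array 1, although the values are not the same; leaving it out was an alternative. The number of biological samples, 3 per group, limits the precision. Other alternatives were scaling, filters, probe choice, technical arrays, a replicate block, the eBayes options, the added value, the threshold and leaving out each sample.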

Additional observations from a re-analysis of the deposited data

How the results depend on the processing

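Of the 18 genes called, 8 were called under each of the 22 alternatives (Abcg1, Fads1, Sc5d, Scap, Scd1, Scd2, Srebf1 and Tm7sf2) and 11 when any 1 sample was left out. All of the 8 but Sc5d have a single probe. The alternatives of probe choice used that probe again, so they gave no check of the probe for these genes. Of the 18 genes, 7 lost the call without some sample. In all, 17 kept their sign throughout, the exception being Hmgcs1 by its second probe (-0.17). With the second brightest probe of each gene 9 genes rose and 2 fell of the 34 tested (1967 and 1708 of 13658 genes). Genes with a single probe kept it here, among them the 10 called genes with a single probe. Sc5d was the only gene called by a further probe. At an adjusted p under 0.01, 9 genes rose and 1 fell (1784 and 1114 of all genes). Without 1 sample, 11 to 16 genes rose and 1 to 3 fell (2007 to 3148 and 1228 to 2108 of all genes), and the medians ranged over 0.42 to 0.59 for sterol synthesis, 0.16 to 0.49 for regulators, 0.09 to 0.34 for uptake and export, 0.95 to 1.28 for fatty acid genes and -0.028 to 0.068 for all genes. The median of all genes was -0.088 with 75th percentile and -0.062 with median scaling, and 0.068 without undifferentiated replicate 2. The cause of these shifts was not tested.

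The labels tie same-numbered samples by number alone, and the correlations of their deviations from the group means were -0.06, 0.22 and 0.07, the highest being that of replicate 2. Those of unlike-numbered samples ran from -0.26 (retinoic acid replicate 3 with undifferentiated replicate 2) to 0.26 (retinoic acid replicate 3 with undifferentiated replicate 1). The block was therefore kept as an alternative. With the replicate block 15 genes rose and 2 fell (2849 and 2040 of all genes), and Nsdhl was the 1 call lost (adjusted p 0.0557).

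The sign turned only in genes that were not called, besides Hmgcs1. With 75th percentile and median scaling it turned in Npc2 (-0.18, -0.14), Apoe (-0.24, -0.20) and Acly (-0.29, -0.26), with the mean of all probes in Npc1 (-0.036), with the second brightest probe in Srebf2 (0.21) and Insig1 (-0.035), with technical array 1 alone in Apob (-0.41), and with technical array 2 alone in Lss (-0.021), Acly (-0.071) and Elovl6 (0.046). Without 1 sample the differences spanned 0 in Mvk (-0.16 to 0.52), Insig1 (-0.28 to 0.49), Acly (-0.25 to 0.32), Idi1 (-0.48 to 0.14), Npc2 (-0.026 to 0.51), Apoe (-0.032 to 0.33) and Elovl6 (-0.43 to 0.00471). Signal limits Apob and Apoa1, the genes that were not above background on every array.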

Other observations

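In 15 of the 38 tested genes (39.5%) replicate 2 was the lowest sample both among the retinoic acid samples and among the undifferentiated samples, beside 1604 of the 15326 genes tested (10.5%). Replicate 2 was the highest in both groups in 4 of the 38 genes (10.5%), beside 4653 of all genes tested (30.4%; 33.7% and 42.5% with 75th percentile and median scaling). The 15 genes were Acat2, Hmgcs1, Mvk, Mvd, Fdps, Fdft1, Cyp51, Insig1, Lrp1, Npc2, Acly, Scd1, Scd2, Fads1 and Fads2. With 75th percentile scaling replicate 2 was the lowest in both groups in 10 genes (26.3%, beside 9.85% of all genes) and with median scaling 9 (23.7%, beside 7.46%). The pattern was noticed after the values were seen and is given as a description.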
